A study of Rattus norvegicus with 18 samples.

Results

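The genes described here move cholesterol out of cells, turn it into oxysterols, store it as ester in lipid droplets or take up modified lipoproteins. They were chosen by symbol from the count table, and 8 of the 9 named genes (Abca1, Abcg1, Ch25h, Cyp46a1, Nr1h3, Plin2, Soat1 and Msr1) were found among its 30735 genes. Cd36 was not analysed here. The 18 libraries hold RNA of adult Sprague-Dawley rat cortex, with 6 from sham animals, 6 from animals at day 1 after subarachnoid hemorrhage (SAH 1d) and 6 from animals at day 7 (SAH 7d). SAH was induced by endovascular perforation under pentobarbital anesthesia, and sham animals had the same surgery without the perforation. Apart from the anesthetic, no drug or genetic change was named for any group. The labels speak of the cortex of both hemispheres, and the study's methods of the cortex on the operated side.

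Cholesterol cannot cross the blood-brain barrier in lipoproteins, so the brain makes its own and disposes of it through oxysterols and lipid export. Liver X receptors (LXR), which bind oxysterols and act as a pair with retinoid X receptors, switch on genes of cholesterol export such as Abca1, Abcg1 and Apoe. Phagocytes that have taken up lipid-rich debris or lipoproteins esterify the surplus cholesterol and keep it in lipid droplets.

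Each library held between 27270026 and 38271014 reads counted on genes. Levels are given as normalised CPM, the reads of a gene scaled to library size by the trimmed mean of M values (TMM), and a gene was called changed at an adjusted p under 0.05 in edgeR's quasi-likelihood test over 18444 genes. All 8 genes passed the filter on low counts. All 7 neuron markers were present in sham, at a sum of 6192 to 9672 CPM. The libraries SAH 1d-3 and SAH 7d-5 stood apart from the rest of their groups, so the results for the 8 genes are also given without them. In SAH 7d-5 the 7 monocyte and macrophage markers in the table, such as Lyz2 and Gpnmb, summed to 12615 CPM against 118 to 379 in the other SAH 7d libraries, 5 markers of meningeal fibroblasts to 3855 against 176 to 325, and 7 neuron markers to 2369 against 6665 to 8796. In SAH 1d-3 the same monocyte and macrophage markers summed to 732 CPM against 196 to 273, and the neuron markers to 4588 against 5025 to 5987. Markers of neutrophils (63.8 against 6.38 to 14.8 CPM), endothelial cells (291 against 126 to 151) and red cells (191 against 52.2 to 102) were also highest in SAH 1d-3 among the SAH 1d libraries. No marker of any of the 11 cell type lists was at 0 throughout a group, and choroid plexus markers summed to at most 67.1 CPM outside SAH 1d, where they reached 1062.

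In sham cortex the order of the levels per length, in FPKM, was led by Cyp46a1 at 102 to 126, followed by Abcg1 at 16.8 to 20.8, and these did not overlap with each other or with any other gene of the group. Plin2 (2.99 to 5.15 FPKM), Soat1 (3.27 to 4.48) and Abca1 (2.08 to 3.88) overlapped one another, as did Abca1 with Ch25h (1.41 to 2.33) and Ch25h with Nr1h3 (1.13 to 2.49). Msr1 was last at 0.032 to 0.156 FPKM, which rested on 7 to 29 reads per sham library.

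Of the 8 genes, 6 were higher and 1 was lower at SAH 1d than in sham, where 14.9% of all tested genes were higher and 10.5% were lower. The scavenger receptor Msr1, the oxysterol enzyme Ch25h and the lipid droplet coat protein Plin2 rose by log2 fold changes of 2.74 to 4.34, and the esterifying enzyme Soat1, the receptor Nr1h3 and the exporter Abca1 by 0.59 to 0.93. Cyp46a1 fell, and the exporter Abcg1 did not pass the test. The median log2 fold change of the 8 genes was 0.80, against 0.01 over all tested genes. The groups did not overlap for Msr1, Ch25h, Plin2 and Soat1, higher at SAH 1d as were 8.32% of all tested genes, nor for Cyp46a1, lower as were 5.15%. Without SAH 1d-3, 6 of the 8 genes were called in the same directions, where 28.5% of all tested genes were called, and the call that was lost was that of Nr1h3. A fit of all 18 libraries together, with a shared spread, called 3 of the 8 genes, Ch25h, Msr1 and Plin2, where it called 13.3% of all genes, and lost Cyp46a1 (edgeR adjusted p = 0.052), Soat1 (0.23), Nr1h3 (0.31) and Abca1 (0.56).

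**Figure D1:**
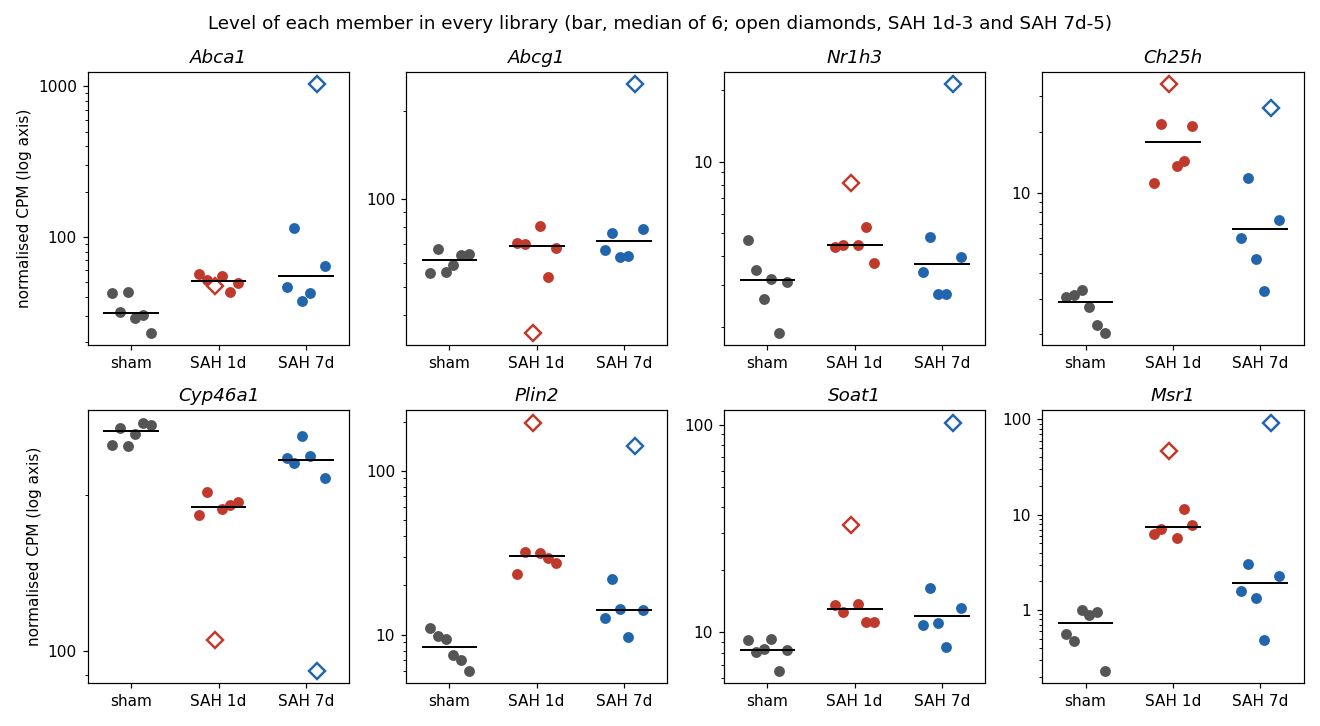
Normalised CPM of the 8 genes on a log axis in every library of sham, SAH 1d and SAH 7d. Points are libraries, bars are medians of 6, and open diamonds mark SAH 1d-3 and SAH 7d-5. Abca1 reached 1029 CPM in SAH 7d-5, whereas SAH 1d-3 lay at 47.1 CPM among its group.

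The export genes differed from each other at SAH 1d. Abca1 encodes a transporter that loads cholesterol and phospholipid onto lipid-poor apolipoproteins. Its level was 23.2 CPM in the lowest, 31.3 in the median and 43.2 in the highest sham library, and 43.0, 50.8 and 56.9 CPM at SAH 1d. A single SAH 1d library lay within the sham range, and the log2 fold change was 0.59 ± 0.14 (SE, n = 6 and 6, edgeR adjusted p = 0.0095, or 0.56 in the fit of all 18 libraries). Without SAH 1d-3 it was 0.61 ± 0.14 (edgeR adjusted p = 0.0071), since that library lay within its group at 47.1 CPM. Abcg1, which passes cholesterol to lipoprotein particles that already hold lipid, stood at 55.6, 61.6 and 67.4 CPM in sham and at 34.7, 68.9 and 80.5 CPM at SAH 1d. The groups overlapped, with 4 SAH 1d libraries above and 2 below every sham library, and the log2 fold change was 0.03 ± 0.16 (edgeR adjusted p = 0.92). SAH 1d-3 was the lowest of all 18 libraries for Abcg1, and without it the log2 fold change was 0.15 ± 0.09 (edgeR adjusted p = 0.25).

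Nr1h3 encodes LXR alpha, a receptor that controls both exporters. Its level was 1.89, 3.14 and 4.68 CPM in the lowest, median and highest sham library and 3.73, 4.43 and 8.15 CPM at SAH 1d. The groups overlapped, and the log2 fold change of 0.67 ± 0.23 lay at the threshold (edgeR adjusted p = 0.0496). Without SAH 1d-3, its highest library, it was 0.48 ± 0.20 (edgeR adjusted p = 0.084), and the call was lost in 10 of the 12 fits that left out 1 library.

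To show the sequence before the starts of 3 genes that rose, 130 bases of RefSeq's rat assembly GRCr8 are given up to the base before the annotated start, written 5′ to 3′ on the gene's strand. Capitals mark the matched motif. In Abca1 it is a loosened DR4, a pair of nuclear receptor sites of the LXR type, found on the opposite strand. Its letters were GGTNA, 5 free bases and GGTCA, where the last free base stands for the first base of the next site. In Ch25h it is the cyclic AMP response element TGACGTCA, and in Plin2 the E-box CACGTG.
Abca1, chr5:72596474-72596603, minus strand: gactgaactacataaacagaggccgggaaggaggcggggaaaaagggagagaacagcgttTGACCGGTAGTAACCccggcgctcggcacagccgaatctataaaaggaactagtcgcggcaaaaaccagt
Ch25h, chr1:241429367-241429496, minus strand: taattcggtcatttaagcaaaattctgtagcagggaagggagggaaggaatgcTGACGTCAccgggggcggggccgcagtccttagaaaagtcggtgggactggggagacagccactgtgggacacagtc
Plin2, chr5:106229019-106229148, minus strand: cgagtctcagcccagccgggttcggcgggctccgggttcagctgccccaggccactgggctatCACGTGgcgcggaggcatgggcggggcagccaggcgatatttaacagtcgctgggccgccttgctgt

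Over 250 bases before the start and both strands, the Abca1 motif was held by 0.209% of the 33469 promoters in the table, TGACGTCA by 1.59% and CACGTG by 5.59%. The full DR4 consensus (AGGTCA, 4 free bases and AGGTCA) was held by 0.00299% of promoters and not by Abca1. The loosened form was searched after the sequences were seen, so its low share carries no weight. Abca1 held a further CACGTG, 149 to 144 bases before its start. Plin2 had 2 promoters in the table, and the second, not shown, held no CACGTG but a match to the NF-kB motif (GGGA, 4 free bases and CC), 222 to 213 bases before its start, as 16.4% of all promoters did. The table held promoters of 6 of the 8 genes, without Abcg1 and Msr1, and Cyp46a1, Nr1h3 and Soat1 held none of the 7 motifs searched. The match is a description of these letters and says nothing of binding in these animals.

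The enzymes that make oxysterols moved in opposite directions. Ch25h adds a hydroxyl group to cholesterol, is known to be induced in activated macrophages and microglia, and its product is an LXR ligand and the precursor of the ligand of Gpr183. Its level was 2.04, 2.89 and 3.30 CPM in the lowest, median and highest sham library and 11.1, 17.9 and 34.2 CPM at SAH 1d. Every SAH 1d library lay above every sham library, and the log2 fold change was 2.81 ± 0.26 (edgeR adjusted p = 3.4e-05). Without SAH 1d-3, its highest library at 34.2 CPM, it was 2.57 ± 0.20 (edgeR adjusted p = 3.9e-06).

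Cyp46a1 is the neuronal enzyme whose hydroxylated product carries most surplus cholesterol out of the brain. Its level was 249, 266 and 276 CPM in sham and 105, 190 and 203 CPM at SAH 1d. Every SAH 1d library lay below every sham library, and Cyp46a1 fell by 0.58 ± 0.13 on the log2 scale (edgeR adjusted p = 0.0071, or 0.052 in the fit of all 18 libraries). SAH 1d-3 was the lowest SAH 1d library, and without it the log2 fold change was -0.47 ± 0.06 (edgeR adjusted p = 7.9e-05). All 7 neuron markers were lower at SAH 1d as well, with a median log2 fold change of -0.58, or -0.44 without SAH 1d-3, and their summed level was 4588 to 5987 CPM against 6192 to 9672 in sham. Their part in the fall of Cyp46a1 was not tested, and in bulk tissue fewer cells of a type cannot be told apart from less RNA per cell.

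Both genes of lipid storage were higher at SAH 1d, Plin2 with the larger fold change. Plin2 coats lipid droplets and its protein is stabilised by them. Its level was 6.01, 8.45 and 10.96 CPM in the lowest, median and highest sham library and 23.6, 30.3 and 197 CPM at SAH 1d. The groups did not overlap, and the log2 fold change was 2.74 ± 0.53 (edgeR adjusted p = 0.0033). The library SAH 1d-3 alone gave 197 CPM, and without it the other 5 libraries lay at 23.6 to 31.8 CPM with a log2 fold change of 1.75 ± 0.15 (edgeR adjusted p = 7.7e-06). Soat1, which esterifies cholesterol for storage in droplets, was at 6.52, 8.27 and 9.30 CPM in sham and at 11.2, 13.03 and 33.0 CPM at SAH 1d. Its groups did not overlap either, and the log2 fold change was 0.93 ± 0.25 (edgeR adjusted p = 0.017, or 0.23 in the fit of all 18 libraries), and 0.58 ± 0.10 without SAH 1d-3 (edgeR adjusted p = 0.0015).

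Msr1, a scavenger receptor of macrophages that takes up modified lipoproteins, had the largest fold change of the 8 genes at SAH 1d. Its level was 0.23, 0.73 and 1.01 CPM in the lowest, median and highest sham library and 5.76, 7.37 and 46.1 CPM at SAH 1d. Every SAH 1d library lay above every sham library, and the log2 fold change was 4.34 ± 0.61 (edgeR adjusted p = 0.00049). SAH 1d-3 was again the highest library, and without it the log2 fold change was 3.45 ± 0.31 (edgeR adjusted p = 1.1e-05). Of the 7 monocyte and macrophage markers tested, 4 were higher at SAH 1d and 3 did not pass the test. The summed level of the 7 was 196 to 732 CPM against 63.9 to 116 in sham. Gpnmb alone gave 99.6 to 222 CPM of it at SAH 1d against 6.26 to 11.7 in sham, so the sum does not show a broad rise of these markers. Of 7 microglia markers, 1 was lower and none was higher, or 3 were higher and 1 was lower without SAH 1d-3, and their summed level was 342 to 403 CPM against 280 to 501 in sham. Of 7 neutrophil markers 2 passed the filter on low counts, and both were higher at SAH 1d, or 1 of them without SAH 1d-3, with a summed level of 6.38 to 63.8 CPM over the 7 against 1.89 to 5.39 in sham. The part of these cells in the rise of Msr1, Ch25h and Plin2 was not tested.

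At SAH 7d, 0 of the 8 genes were called against sham by edgeR, as were 0 of all tested genes (0%). At an unadjusted p under 0.05, 5 of the 8 genes (Ch25h, Abca1, Plin2, Soat1 and Msr1) were higher, as were 11.7% of all tested genes. DESeq2 gave an adjusted p for 3 of the 8 genes and called Ch25h higher (DESeq2 adjusted p = 0.0041), where it called 2.27% of all genes it tested higher. The comparison shared its sham libraries with that of SAH 1d, so the values are set side by side and not compared.

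At SAH 7d, 4 or 5 of the 6 libraries lay above every sham library for Ch25h, Plin2, Soat1, Msr1 and Abca1. Ch25h stood at 3.27, 6.65 and 26.1 CPM in the lowest, median and highest library, and 5 of 6 SAH 7d libraries lay above every sham library. Plin2 stood at 9.70, 14.2 and 143 CPM, Soat1 at 8.46, 12.1 and 102 CPM and Msr1 at 0.48, 1.94 and 92.7 CPM, each with 5 libraries above every sham library. Abca1 stood at 37.4, 55.5 and 1029 CPM with 4 libraries above every sham library, and Abcg1 at 62.9, 71.6 and 247 CPM with 3. Nr1h3 stood at 2.75, 3.68 and 21.2 CPM with 2 libraries above every sham library, and Cyp46a1 at 91.5, 234 and 260 CPM with 5 libraries below every sham library. The highest library, or for Cyp46a1 the lowest, was SAH 7d-5 for all 8 genes. The share of all tested genes at their extreme in SAH 7d-5 was not worked out. Its macrophage, fibroblast and neuron markers lay apart as well, so this is not particular to the 8 genes.

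With all 12 libraries the log2 fold changes against sham were 2.74 ± 0.84 for Abca1 (edgeR adjusted p = 0.22) and 4.63 ± 1.31 for Msr1 (0.21). They were 1.85 ± 0.45 for Ch25h (edgeR adjusted p = 0.21) and 2.09 ± 0.65 for Plin2 (0.22). Without SAH 7d-5 they were 0.87 ± 0.27 for Abca1, 1.34 ± 0.45 for Msr1, 1.27 ± 0.28 for Ch25h and 0.77 ± 0.20 for Plin2, and none was called (edgeR adjusted p = 0.20, 0.22, 0.12 and 0.14). Over the other 4 genes the log2 fold changes ran from -0.33 for Cyp46a1 to 1.72 for Soat1, and from -0.17 to 0.52 for the same genes without SAH 7d-5.

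**Figure D2:**
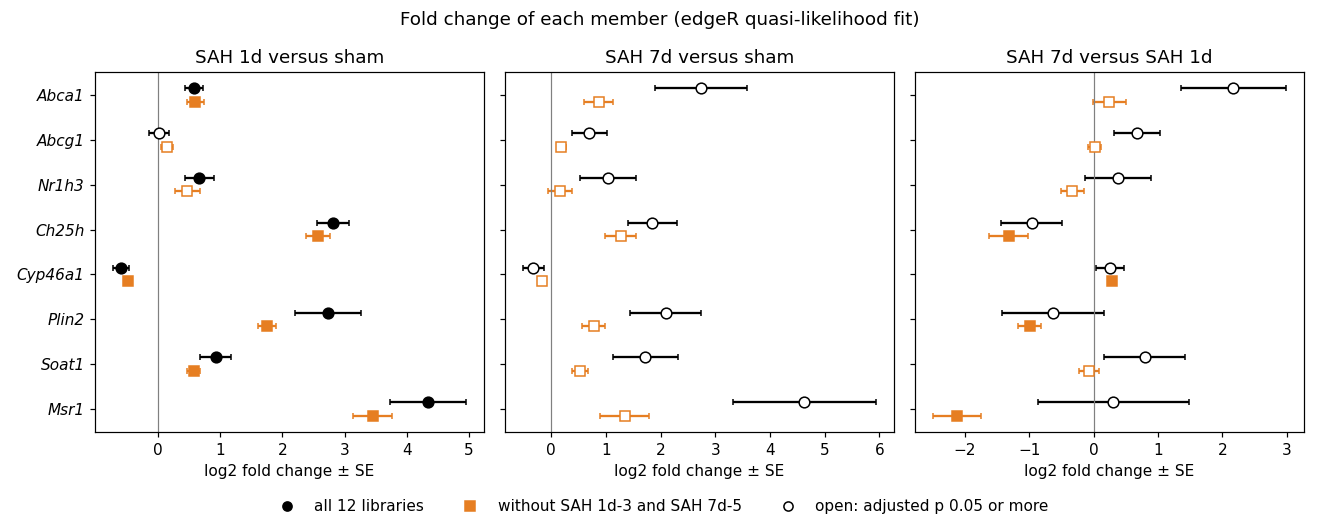
Log2 fold changes (x axis) of the 8 genes in the 3 comparisons with SE, from all 12 libraries (black circles) and without SAH 7d-5 and SAH 1d-3 (orange squares). Filled symbols have an adjusted p under 0.05, and 7 of 8 circles are filled for SAH 1d versus sham and none for the comparisons of SAH 7d.

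Between SAH 7d and SAH 1d, 0 of the 8 genes were called by edgeR, where 1.37% of all tested genes were. At an unadjusted p under 0.05 there was 1 gene, Abca1, higher at SAH 7d as were 6.66% of all tested genes, by a log2 fold change of 2.17 ± 0.82 (edgeR adjusted p = 0.23), and 0.24 ± 0.26 without the 2 libraries. DESeq2 called 0 of the 3 genes it gave an adjusted p for, and 5.70% of all genes it tested.

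Without SAH 7d-5 and SAH 1d-3, 3 genes were lower at SAH 7d than at SAH 1d and 1 was higher, where 7.49% and 6.13% of all tested genes were. Msr1 was lower by a log2 fold change of -2.12 ± 0.37 (edgeR adjusted p = 0.0037) and Ch25h by -1.32 ± 0.31 (0.016). Plin2 was lower by -0.99 ± 0.18 (edgeR adjusted p = 0.0044), and Cyp46a1 was higher by 0.29 ± 0.06 (0.010). Of the 7 neuron markers, 4 were higher and none was lower in the same fit, with a median log2 fold change of 0.32, and their part in the difference of Cyp46a1 was not tested. Soat1 at -0.07 ± 0.15, Nr1h3 at -0.33 ± 0.18, Abcg1 at 0.01 ± 0.10 and Abca1 were not called. The fit with sample quality weights, which kept all 12 libraries, called the same 4 genes in the same directions (14.7% of all genes), and leaving out SAH 7d-5 alone called 2 of them, Ch25h and Msr1 (8.38% of all genes). In the 10 libraries, Msr1 lay at 5.76 to 11.4 CPM at SAH 1d and at 0.48 to 3.08 CPM at SAH 7d, and Plin2 at 23.6 to 31.8 against 9.70 to 21.8.

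The 2 libraries differed most in the exporters. In SAH 7d-5, Msr1 was 57.9 times, Abca1 22.2 times, Plin2 10.1 times and Soat1 9.28 times the median of the other 5 SAH 7d libraries, and Nr1h3, Ch25h and Abcg1 were 6.22, 4.38 and 3.69 times that median. Cyp46a1 was 0.387 times that median and the lowest of all 18 libraries. In SAH 1d-3, Plin2 was 6.75 times and Msr1 6.57 times the median of the other 5 SAH 1d libraries, Soat1 2.64 times, Ch25h 2.39 times and Nr1h3 1.84 times, and Cyp46a1 was 0.548 times that median. The exporters did not follow there, with Abca1 at 0.906 and Abcg1 at 0.496 times that median. Set against each other, SAH 7d-5 held 21.9 times the Abca1 and 7.12 times the Abcg1 level of SAH 1d-3. Soat1, Nr1h3 and Msr1 were also higher there, at 3.11, 2.61 and 2.01 times the level of SAH 1d-3, whereas Cyp46a1, Ch25h and Plin2 were at 0.872, 0.761 and 0.723 times. These are values of single libraries with no replicate. SAH 7d-2 was the second highest SAH 7d library for 6 of the 8 genes, with Abca1 at 114 CPM and Plin2 at 21.8 CPM. The share of all tested genes ranked this way was not worked out. The microglia markers of SAH 7d-2 summed to 1109 CPM against 2569 in SAH 7d-5 and 351 to 853 in the other SAH 7d libraries.

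**Figure D3:**
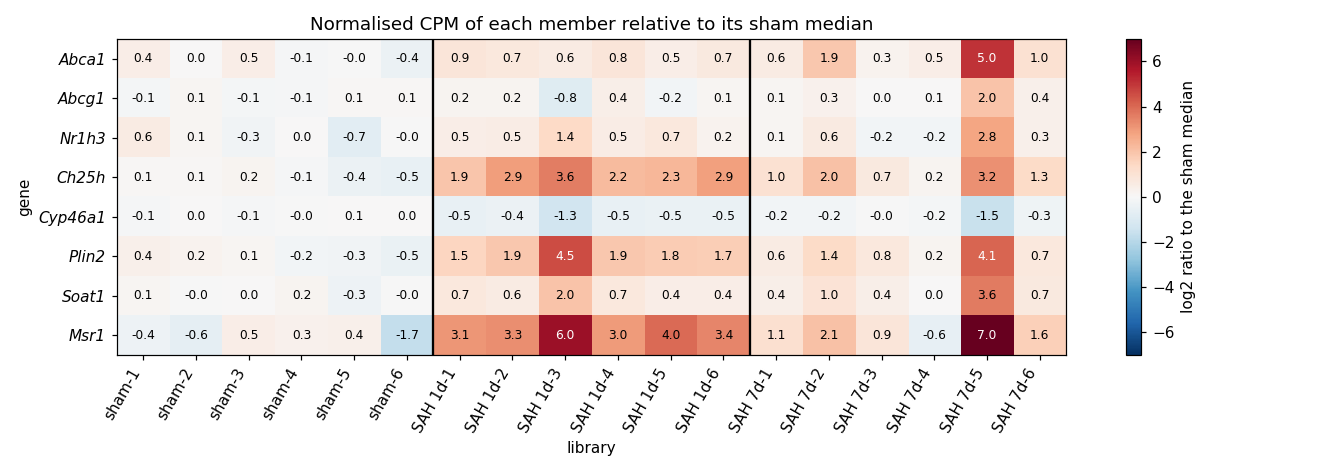
Log2 ratio of the normalised CPM of each gene (rows) to its sham median in all 18 libraries (columns), with black lines between sham, SAH 1d and SAH 7d. Red is higher and blue is lower than the sham median, and Abca1 and Abcg1 are highest in SAH 7d-5 whereas Plin2 and Ch25h are highest in SAH 1d-3.

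By the distance between standardised log2 CPM profiles over the 18 libraries, the 2 most alike of the 8 genes were Plin2 and Msr1, at a distance of 1.29, followed by Nr1h3 and Soat1 at 1.40. Over the 16 libraries that did not stand apart, the most alike were Ch25h and Plin2 at 0.945, Ch25h and Msr1 at 1.37 and Plin2 and Msr1 at 1.47. Cyp46a1 was the most unlike, at 7.06 or more from each of the others over 18 libraries and at 6.62 or more over 16. Among all other genes with a symbol, the 2 nearest over 18 libraries were Glb1 (0.898) and Dpp7 (0.940) for Abca1, Nfam1 (1.26) and Ldb1 (1.27) for Abcg1, and Cep55 (1.15) and Cd38 (1.15) for Nr1h3. They were Csf2rb (0.862) and Hmox1 (1.12), the gene of the enzyme that degrades heme, for Ch25h, and Cacng3 (0.674) and B4galt2 (0.710) for Cyp46a1. They were Anxa2 (0.689) and Tpm4 (0.726) for Plin2, Ctsb (0.811) and Myo1e (0.822) for Soat1, and Relb (1.08) and Clic1 (1.08) for Msr1. Of these 16 nearest genes 1, B4galt2, was also among the 2 nearest over 16 libraries. The rest changed when the 2 libraries were left out, and leaving out other libraries was not tried. The profiles share libraries and depth, and the distances are descriptions.

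Of the 62 tested genes in 7 lists of the same pathway, 16 were higher and 1 was lower at SAH 1d than in sham, where 14.9% and 10.5% of all tested genes were. Without SAH 1d-3, 15 were higher and 6 were lower, in a fit that called 28.5% of all tested genes. Their median log2 fold change was 0.12, and 0.06 without SAH 1d-3. The lists were chosen with earlier results of these data known.

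Of 7 receptors in the LXR and partner list, 2 were higher at SAH 1d. Rxra, the common partner of LXR, rose by a log2 fold change of 0.62 ± 0.12 (edgeR adjusted p = 0.0032), and Pparg, a lipid-sensing receptor expressed here at a low level, by 1.25 ± 0.33 (0.015). The other LXR, Nr1h2, was at 0.11 ± 0.11 (0.49). Without SAH 1d-3, Rxra and Pparg were at 0.63 and 1.23, both called.

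Of 9 other LXR target genes tested, 1 was higher at SAH 1d and none was lower. Mylip, which encodes a ubiquitin ligase, rose by 0.57 ± 0.08 on the log2 scale (edgeR adjusted p = 0.00064), and by 0.58 without SAH 1d-3. Apoe, the main lipoprotein of the brain, had a log2 fold change of -0.26 ± 0.14 (edgeR adjusted p = 0.18) and Srebf1, the regulator of fatty acid synthesis, of -0.19 ± 0.18 (0.45). In SAH 7d-5, 7 of the 9 targets were higher than in every other SAH 7d library, with Apoe at 21915 CPM against 2189 to 3892 in the other SAH 7d libraries, and Srebf1 at 221 CPM against 42.7 to 69.8. The other 2 were lowest there, Scd at 16.7 CPM against 18.4 to 26.5 and Abcg4 at 12.3 CPM against 21.4 to 26.1, and both were named after their values were seen. The share of all tested genes highest in SAH 7d-5 was not worked out. Genes outside this list, such as Lipa and Lyz2, were also highest there, so the count is not particular to LXR targets. In SAH 1d-3, Apoe and Srebf1 were at their lowest among the SAH 1d libraries, at 1385 and 23.8 CPM. Without the 2 libraries Apoe was higher at SAH 7d than at SAH 1d, by a log2 fold change of 0.55 ± 0.15 (edgeR adjusted p = 0.028).

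Of 9 other exporters and lipoprotein genes tested, 2 were higher at SAH 1d. Clu, an apolipoprotein of astrocytes, rose by a log2 fold change of 0.90 ± 0.09 (edgeR adjusted p = 6.3e-05) and Apod by 0.42 ± 0.10 (0.012). Without SAH 1d-3 they were at 0.92 and 0.41, both called.

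Of 6 other oxysterol genes tested, 2 were higher at SAH 1d. Gpr183, the receptor of an oxysterol derived from the product of Ch25h, had 1.162 to 2.14 CPM in sham and 2.84 to 6.66 CPM at SAH 1d. The groups did not overlap, with a log2 fold change of 1.44 ± 0.24 (edgeR adjusted p = 0.0013), or 1.26 without SAH 1d-3, also called. Hsd3b7, a further enzyme of oxysterol breakdown, rose by 0.46 ± 0.15 (edgeR adjusted p = 0.042), a call lost without SAH 1d-3 (0.052). Cyp7b1, the enzyme that makes the Gpr183 ligand, was at -0.05 ± 0.13 (0.78) and Cyp27a1 at -0.23 ± 0.21 (0.46).

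Of 8 genes of lysosomal cholesterol release, 1 was higher and 1 was lower at SAH 1d. Lipa, the acid lipase that frees cholesterol from lipoprotein ester, rose by a log2 fold change of 0.27 ± 0.06 (edgeR adjusted p = 0.0097), and Nceh1, an ester hydrolase, fell by 0.38 ± 0.09 (0.012). Without SAH 1d-3 they were at 0.26 and -0.33, both called. Npc1, which exports cholesterol from the lysosome, was at 0.16 ± 0.13 (0.36). In SAH 7d-5 Lipa reached 404 CPM against 59.4 to 91.0 in the other SAH 7d libraries.

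Of 15 other lipid droplet genes tested, 3 were higher at SAH 1d. Plin3, a relative of Plin2, rose by a log2 fold change of 1.23 ± 0.24 (edgeR adjusted p = 0.0029), Cidea, a droplet fusion protein, by 1.08 ± 0.34 (0.034) and Lipe, a neutral lipase, by 0.78 ± 0.20 (0.015). Without SAH 1d-3 they were at 0.99, 1.08 and 0.58, all called. Cidea was expressed at a low level, 0.137 to 0.412 CPM in sham and 0.396 to 1.11 CPM at SAH 1d, and its groups overlapped. Hilpda, an inhibitor of droplet lipolysis, was at 0.39 ± 0.21 (0.20).

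Of 12 other scavenger and lipoprotein receptors tested, 5 were higher at SAH 1d. Olr1, a receptor of oxidised lipoprotein, stood at 0.786 to 1.80 CPM in sham and at 6.41 to 60.7 CPM at SAH 1d, and its log2 fold change was 4.15 ± 0.56 (edgeR adjusted p = 0.00036). Cxcl16 rose by 2.93 ± 0.46 on the log2 scale (edgeR adjusted p = 0.0010) and Scara5, a ferritin receptor, by 2.09 ± 0.64 (0.029). Without SAH 1d-3 the log2 fold changes of Olr1, Cxcl16 and Scara5 were 3.37, 2.23 and 0.92, all called. Cd68 and Scarf1, named after their values were seen since they complete the 5, rose by 1.86 and 1.89, and by 1.39 and 1.66 without SAH 1d-3. Against sham at SAH 7d, 0 of the 62 genes were called, as were 0 of all tested genes. Against SAH 1d the only one was Scarf1, where 1.37% of all tested genes were called. Scarf1 was lower by a log2 fold change of -1.72 (edgeR adjusted p = 0.033). Without SAH 7d-5 and SAH 1d-3, 0 were called against sham. Against SAH 1d, 4 were lower and 1, Apoe, was higher, where 7.49% and 6.13% of all tested genes were. Scarf1 was then at -1.74 (edgeR adjusted p = 0.0024), Pparg at -1.24 (0.034), Clu at -0.47 (0.026) and Lipe at -0.41 (0.029).

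**Figure D4:**
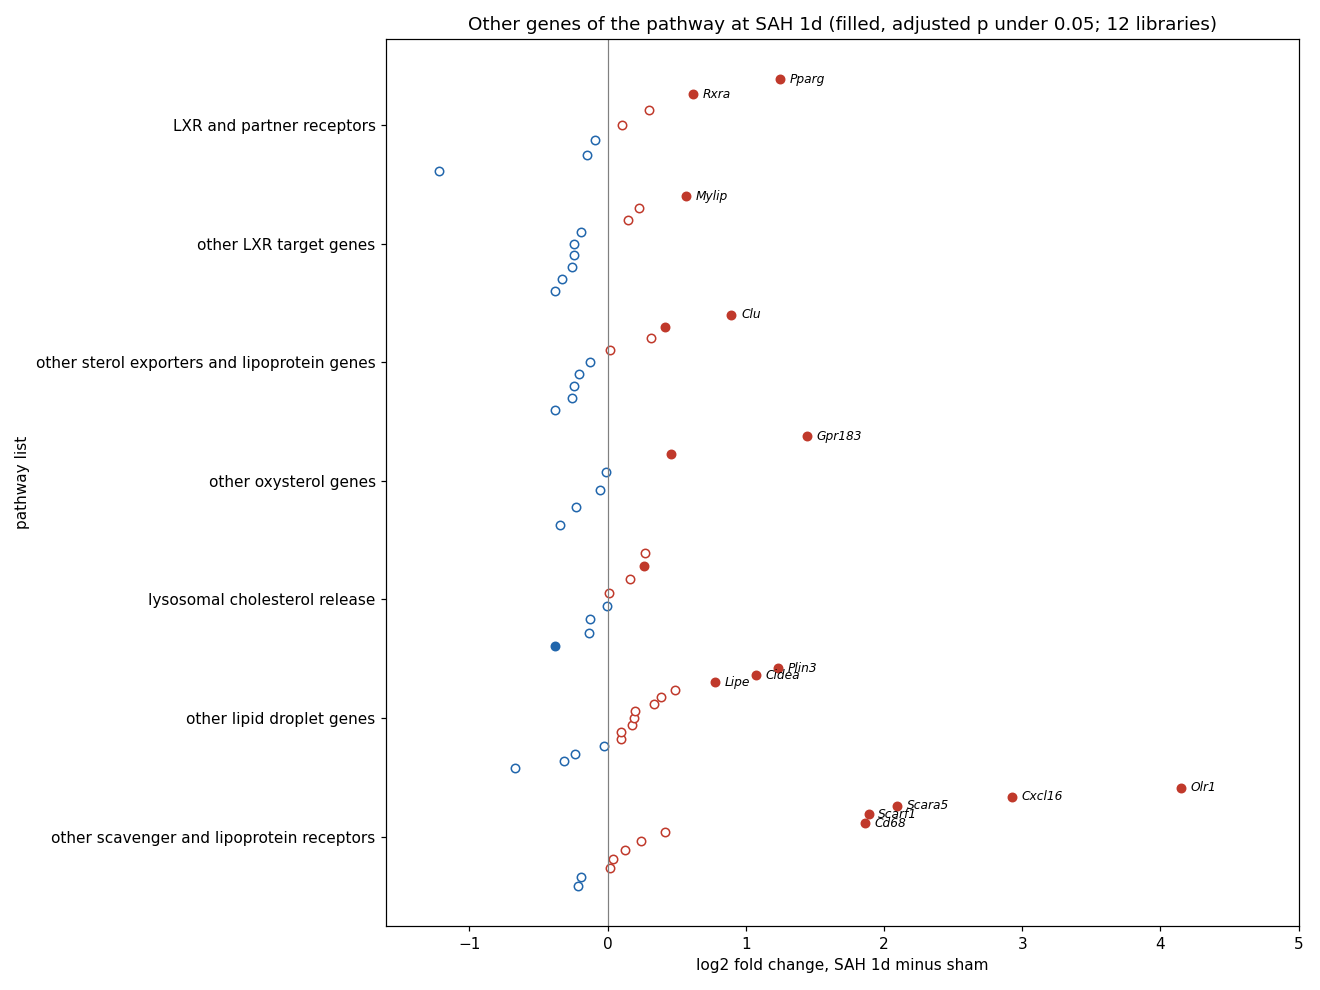
Log2 fold changes of SAH 1d minus sham (x axis) for the tested genes of 7 pathway lists (y axis, 1 point per gene and list). Red points lie above and blue points below 0, filled points have an adjusted p under 0.05, and the filled genes at 0.55 or more in size are named. The scavenger receptors Olr1, Cxcl16, Scara5, Scarf1 and Cd68 lie farthest to the right.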

How the data were processed

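Total RNA of rat cortex was sequenced in 18 libraries made with a kit that does not mark strand, so reads of overlapping genes on opposite strands cannot be told apart. The authors deposited counts per gene, whole numbers without normalisation, and FPKM values per gene, which they scaled by gene length and library size. The study's methods give alignment to Rnor_6.0, whereas the submitters' processing notes name fastp, HISAT2, DESeq2 1.16.1 and a mouse build without a role. Labels give no separate animals beyond sample names, so p-values measure the spread between these samples.

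Counts were filtered with filterByExpr over all 18 libraries, scaled by TMM and fitted with edgeR 4.0.16 in R 4.3.3 (glmQLFit, glmQLFTest) on the 12 libraries of each comparison, with Benjamini-Hochberg adjustment over 18444 genes. Normalised CPM came from TMM over all libraries. SE was the log2 fold change divided by the square root of F. DESeq2 1.42.0 and limma 3.58.1 served as alternatives, limma on log2(FPKM + 1) or log2(FPKM + 0.1). The edgeR fit was tested on simulated data.

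The genes, lists, motifs and libraries said to stand apart were chosen with earlier results of these data known. Named genes are all members, from each pathway list up to 3 genes per comparison at an adjusted p under 0.05 with the largest change, and Nr1h2, Srebf1, Apoe, Cyp7b1, Cyp27a1, Gpr183, Npc1, Lipa, Hilpda and Plin3. A further gene of this rule is not reported here. The 7 motifs were searched on both strands after the sequences were seen. The profile distances over 16 libraries were added after seeing the data.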

Additional observations from a re-analysis of the deposited data

Results flagged for a closer look

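Each of the 8 genes was examined in each group of 6 libraries for a highest or lowest library separated from its nearest neighbour by more than Dixon's critical share of the group's range on the log2 scale. Of 24 groups 11 held such a library, and the groups share libraries. Each time it was SAH 7d-5 or SAH 1d-3, which were known to stand apart. The share over all tested genes was not worked out, so the count is not a result about these 8 genes in particular. In SAH 7d the library SAH 7d-5 lay far above the others for Abca1 (1029 CPM), Abcg1 (247 CPM), Plin2 (143 CPM), Soat1 (102 CPM), Msr1 (92.7 CPM) and Nr1h3 (21.2 CPM), and far below them for Cyp46a1 (91.5 CPM). In SAH 1d the library SAH 1d-3 lay far above the others for Plin2 (197 CPM), Msr1 (46.1 CPM) and Soat1 (33.0 CPM), and far below them for Cyp46a1 (105 CPM). No sham library lay this far from its group. The cause was not tested.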

How the results depend on the processing

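The count of genes changed at SAH 1d against sham was 6 or 7 of 8 in every setting but the fit of all 18 libraries, where it was 3, and leaving out 1 library gave 6 to 7. At SAH 7d against sham it was 0 in every edgeR and limma fit and 1 with DESeq2, and leaving out 1 library gave 0 throughout. For SAH 7d against SAH 1d it was 4 with limma voom and quality weights, 4 without SAH 7d-5 and SAH 1d-3, and 0 to 2 when 1 library was left out. Libraries with the same replicate number did not deviate together, with correlations of -0.25 to 0.20. The fit with the replicate number as a block called 6 genes at SAH 1d against sham, without Nr1h3 (adjusted p = 0.099), and 0 in the other comparisons, so it changed no other call, and over all genes it called 3979 at SAH 1d against 4684 without the block.

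Directions turned as follows, as log2 fold changes. Abcg1 at SAH 1d against sham was -0.016 with the replicate block and ran from -0.054 to 0.15 when 1 library was left out. For SAH 7d against SAH 1d, the quality weights gave -0.33 for Nr1h3, -0.10 for Soat1 and -2.29 for Msr1. The fit without both libraries gave -0.33, -0.069 and -2.12 for the same 3 genes. With the replicate block Nr1h3 was -0.087 and Msr1 -1.91. On log2(FPKM + 1), with and without the filter, Nr1h3 was -0.041 and Msr1 -0.54, and on log2(FPKM + 0.1) they were -0.11 and -1.46. Leaving out 1 library gave -0.53 to 0.57 for Nr1h3, -0.42 to 1.15 for Soat1, -3.01 to 1.19 for Msr1 and -1.98 to 0.35 for Plin2. The lowest of these came without SAH 7d-5 and the positive value of Plin2 without SAH 1d-3. The cause was not tested. Msr1 rested on 7 to 29 reads per sham library and was removed by a minimum of 10 counts in every library. On log2(FPKM + 0.1) the median of all genes at SAH 1d shifted by 0.11.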
